A study of Mus musculus with 6 samples.

Results

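The genes described here carry glucose carbon through glycolysis, pyruvate and lactate handling, and glycogen storage. They were 35 genes chosen by name, with earlier results of these data known, so their shares beside all genes are descriptive. The 35 were 16 of glycolysis, 10 of pyruvate and lactate metabolism and 9 of glycogen metabolism. Of these, 30 had a probe set whose annotation gave that symbol alone, among 22180 genes measured in this way. The other 5 were Gpi1, Aldoa, Eno1, Mpc2 and Pfkfb1, for which no such probe set was found. Where a gene had several probe sets, the one with the highest mean over the 6 arrays stood for it.

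RNA came from adipose tissue of mice aged 32 weeks, the young of mothers kept on 1 of 2 diets. In the restriction group (3 samples) the mother's diet was restricted in chromium, a trace metal, and in the control group (3 samples) it was a control diet. The sample titles name a maternal diet for the restriction group alone, and the control titles say control diet. Each sample had 1 array, with total RNA as the starting material and biotin as the label. The sources used here do not give strain, sex, fat depot or what the young themselves ate. Nor do they say that each sample was its own animal or litter, and the tests therefore see no more than the spread over these 6 samples, which may be technical.

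Glycolysis splits glucose into pyruvate in the cytosol. Hexokinases trap glucose as glucose 6-phosphate, phosphofructokinases commit it to breakdown, and later steps yield ATP and pyruvate. Pyruvate is reduced to lactate by lactate dehydrogenase or enters mitochondria through the mitochondrial pyruvate carrier, where the pyruvate dehydrogenase complex turns it into acetyl-CoA. In fat cells this route feeds fatty acid synthesis and provides the glycerol backbone of triglyceride, and a small glycogen store is built and broken down alongside it.

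Both restriction replicates 1 and 3 held liver transcripts, and they are described apart from restriction replicate 2. Alb, which encodes the liver plasma protein albumin, was at 13.72 and 13.55 on the log2 scale in restriction replicates 1 and 3, at 9.17 in restriction replicate 2, and from 9.37 to 9.98 among the controls. An array was called liver-rich where Alb lay more than 2 log2 units above the highest control. All 7 genes of a liver list were above every control in both liver-rich arrays, with list means of 11.33 and 10.90, against 6.55 in restriction replicate 2 and a control range of 6.56 to 6.94. Restriction replicate 2 had all 6 genes of an intestinal epithelium list above every control. The list mean was 7.25 there, 5.25 to 5.47 in the controls and 6.11 to 6.29 in the liver-rich arrays. In the liver-rich arrays this rested on Fabp2 and Apoa4, which were 2.04 and 2.96 above the control mean. These genes were 1.88 and 2.95 above it in restriction replicate 2. Sis, Muc13, Cdh17 and Vil1 differed by 0.03, -0.01, -0.01 and 0.14 in the liver-rich arrays. Of a brown adipocyte list 5 of 6 genes were measured. Control replicate 1 had the highest mean of these, 8.59, followed by control replicate 3 with 6.60, and the range elsewhere was 5.39 to 5.69. The 6 adipocyte markers averaged 12.15 to 12.26 in the restriction arrays and 12.47 to 12.59 in the controls. Without Adipoq, whose row was written with extra digits in the deposited table, the means were 12.45 to 12.63 and 12.62 to 12.75. In bulk tissue, fewer cells of a type and less RNA per cell cannot be told apart.

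The named genes as a whole were listed lower in the restriction group, mostly in its liver-rich arrays. Of the 30 measured genes 25 were lower and 5 higher, with a median log2 difference of -0.35, restriction minus control. Over all genes tested 56.8% were lower and the median was -0.02. Against the control mean, the median of the 30 was -0.009 in restriction replicate 2 and -0.45 in the liver-rich arrays. Below that mean lay 16 and 26 of the 30, beside 12545 and 12351 of all 22180 genes. In limma's moderated test with Benjamini-Hochberg adjustment over all 22180 genes, 0 of the 30 passed an adjusted p of 0.05, against 0.194% of all genes, and the smallest adjusted p among them was 0.352. At an unadjusted p under 0.05, 9 genes (30%) were lower and 1 was higher, where 3.53% of all genes were lower and 2.42% higher. Without the rows with extra digits 0 of all genes passed, and in limma the adjusted p of Ldhb rose from 0.352 to 0.812. None of the 30 lay in such a row. Among the 28 of them brighter than the median gene the count of lower genes was also 9, against 5.83% of all genes that bright. The 9 lower genes became 5 without restriction replicate 1, 5 without control replicate 2 and 18 without restriction replicate 2. The share of all genes lower at that p was not counted in these fits, so these counts cannot be set against it. With restriction replicate 2 left out, so that the liver-rich arrays alone stood against the controls, 5 of the 30 passed an adjusted p of 0.05 (Hk2, Pfkl, Pdha1, Gys1 and Gbe1), against 1.98% of all genes. With the liver list's mean added to the fit as a covariate, 0 of the 30 passed in limma, and 4 were lower at an unadjusted p under 0.05, against 1.37% of all genes.

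Gene by gene, the arrays fell into distinct patterns. In 7 of the 30 genes (23.3%) all 3 restriction arrays lay below all 3 controls, against 6.06% of all genes and 7.41% of those brighter than the median gene. They were Hk2, Pfkl, Pfkm, Ldhb, Dlat, Gys1 and Gyg. In 20 of the 30 (66.7%) both liver-rich arrays lay below all controls, against 15.0% of all genes and 21.7% of the brighter ones; in 2, Slc16a3 and Ugp2, both lay above, against 10.1%. Restriction replicate 2 lay below all controls in the same 7 genes as above and in no other, against 25.9% of all genes. In 11 of these 20 restriction replicate 2 was inside the control range, against 6.34% of all genes tested and 10.1% of the brighter ones: Gapdh, Pkm, Pgk1, Ldha, Pdha1, Pdhb, Dld, Mpc1, Gbe1, Ppp1r3c and Pygl. In Pgam1 and Pygb it lay above the controls, as it did in Slc16a3, against 18.8% of all genes. The mean of the liver-rich arrays was below the value of restriction replicate 2 in 24 of 30 genes (80.0%), against 48.9% of all genes.

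**Figure D1:**
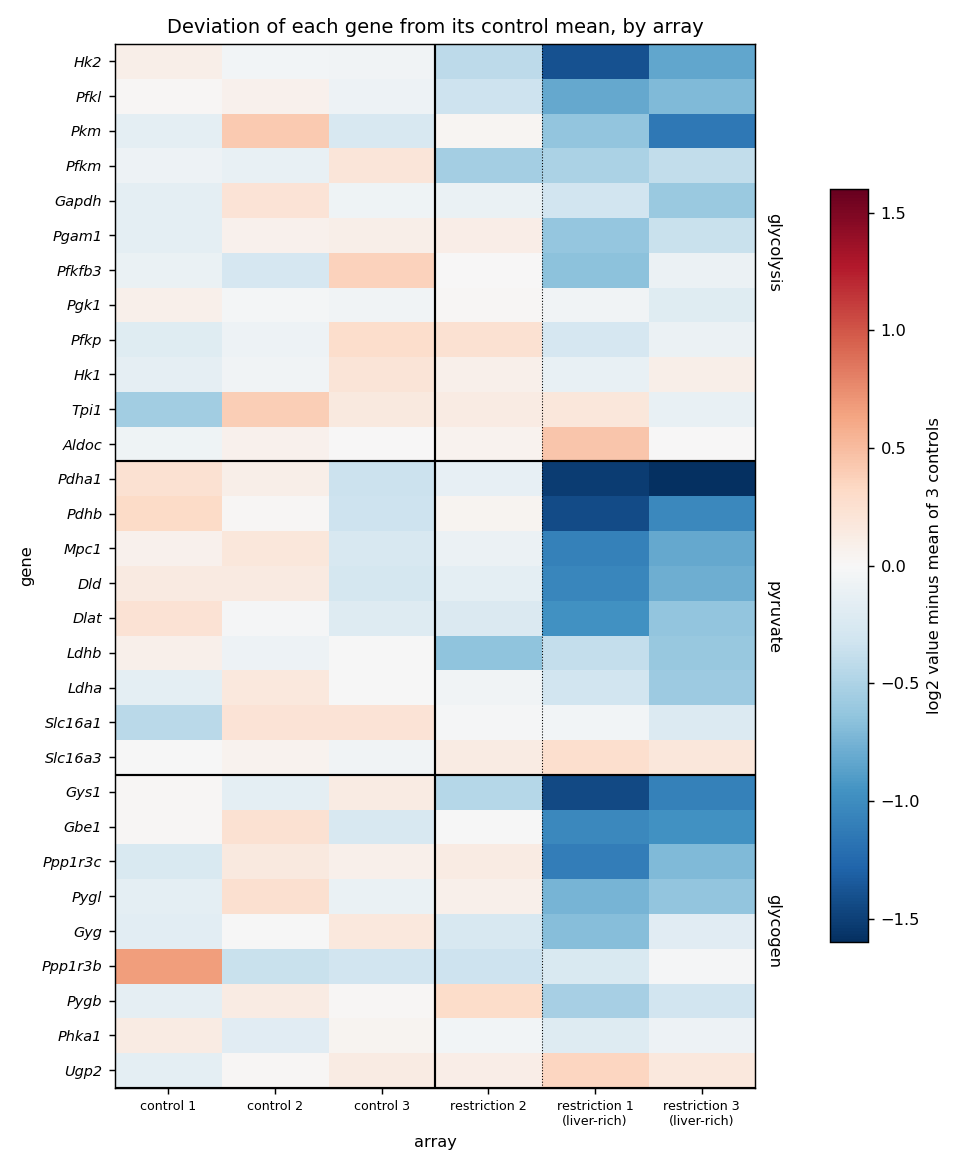
Heat map of the 30 measured genes (vertical axis, by class) in the 6 arrays (horizontal axis); colour gives the log2 value minus the gene's mean over the 3 controls, blue for lower. The darkest blue is in the liver-rich restriction arrays for Pdha1, Pdhb, Gys1 and Hk2, while restriction replicate 2 is near the control level in most rows and blue in Ldhb, Pfkm, Gys1 and Hk2.

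Among the enzymes that trap glucose and commit it to glycolysis, Hk2 and both Pfkm and Pfkl were listed lower. Hk2 encodes hexokinase 2, the insulin-responsive isozyme of muscle and fat. It was at 7.58, 8.55 and 8.14 in restriction replicates 1, 2 and 3 and at 9.06, 8.93 and 8.92 in control replicates 1, 2 and 3. The groups did not overlap, and restriction replicate 2 lay between the controls and the liver-rich arrays. The log2 difference was -0.88 ± 0.24 (limma SE, n = 3 per group), a 1.84-fold lower listed level, with a limma adjusted p of 0.679. Hk1, the widely expressed hexokinase, differed by 0.02 ± 0.12. Whether the 2 hexokinases differed from each other in response was not tested.

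Phosphofructokinase catalyses the committed step of glycolysis and has muscle, liver and platelet type subunits. Pfkm, the muscle type, was at 6.36, 6.32 and 6.46 in restriction replicates 1, 2 and 3 and at 6.78, 6.74 and 7.06 in the controls. All 3 restriction arrays were alike for this gene whatever their liver content. The log2 difference was -0.48 ± 0.11 (limma SE, adjusted p = 0.547), and with the liver covariate it was -0.54 ± 0.15. Pfkl, the liver type, was at 7.48, 7.97 and 7.59 against 8.31, 8.37 and 8.21 in the controls. It too was lower in every restriction array, with the liver-rich arrays lowest, although its name marks it as the liver form. The difference was -0.62 ± 0.14 (limma SE, adjusted p = 0.555) and -0.34 ± 0.11 with the liver covariate. Pfkp, the platelet type, overlapped between groups, with a difference of -0.04 ± 0.18. Pfkfb3, which makes the phosphofructokinase activator fructose 2,6-bisphosphate, also overlapped, at 9.25 to 9.91 against 9.64 to 10.28.

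The later steps of glycolysis mostly overlapped between groups, with the liver-rich arrays below the controls in Gapdh, Pkm, Pgam1 and Pgk1. Gapdh, the glyceraldehyde 3-phosphate dehydrogenase often used as a reference gene, was at 12.05, 12.25 and 11.75 in the restriction arrays and at 12.20, 12.57 and 12.29 in the controls. Restriction replicate 2 was inside the control range and the liver-rich arrays were below it. The log2 difference was -0.34 ± 0.16 (limma SE, adjusted p = 0.818), and 2 dimmer probe sets of Gapdh alone differed by -0.27 and -0.22. Gapdh has many near-identical pseudogene copies, so its probe sets may share signal with them. Pkm, pyruvate kinase, was at 10.11, 10.78 and 9.60 against 10.58, 11.17 and 10.48, a difference of -0.58 ± 0.33. Pgam1, phosphoglycerate mutase, differed by -0.29 ± 0.19, and its dimmer second probe set by -0.03. Pgk1, phosphoglycerate kinase, differed by -0.08 ± 0.09. Tpi1, triose phosphate isomerase, and Aldoc, an aldolase, differed by 0.06 ± 0.25 and 0.17 ± 0.13. Tpi1 was lowest in control replicate 1, at 9.96 against 10.39 to 10.91 elsewhere, and that array also had the most brown adipocyte signal (a list mean of 8.59), whose part in this value was not tested. Over the 12 measured glycolysis genes the median log2 difference was -0.27, with 9 lower, and 3 lower at an unadjusted p under 0.05. Against the control mean, the median was 0.03 in restriction replicate 2 and -0.41 in the liver-rich arrays. Without restriction replicate 1 the median difference was -0.11, and without replicate 2 it was -0.41.

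**Figure D2:**
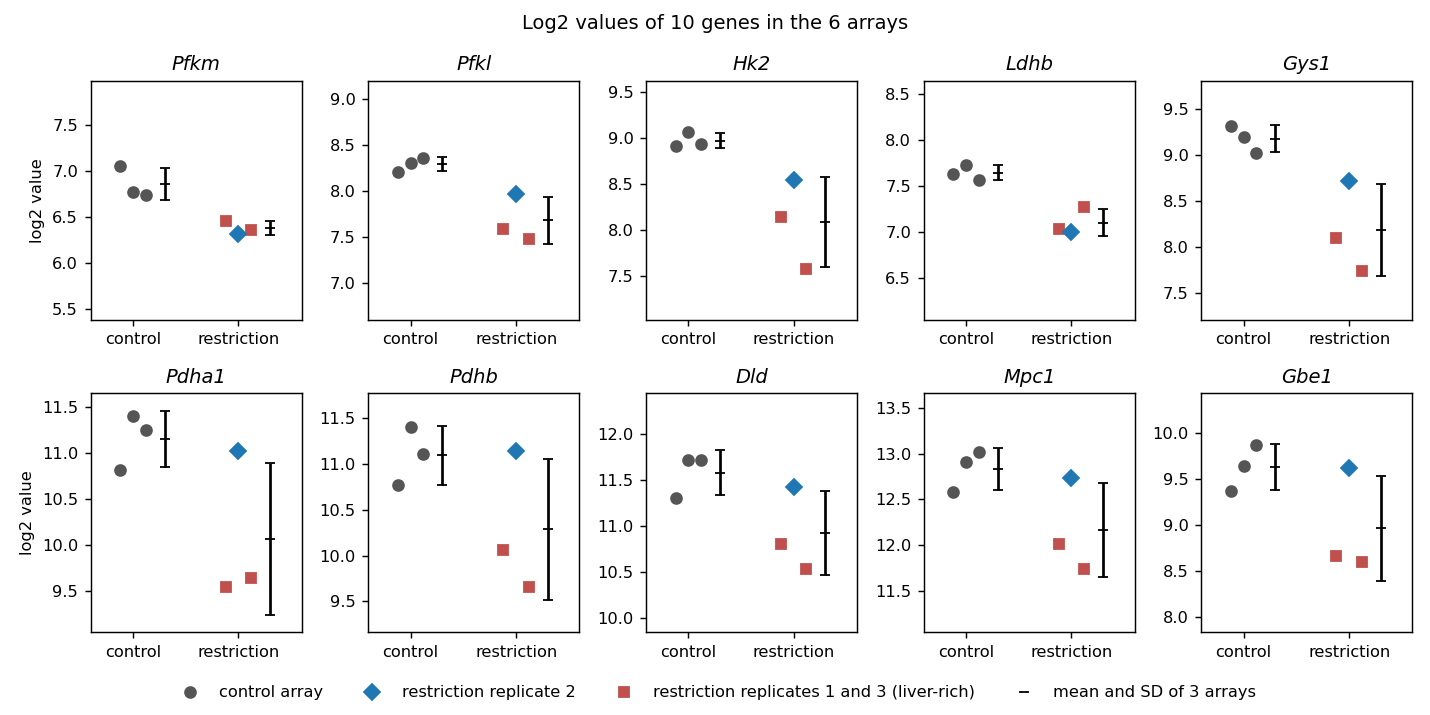
Log2 values (vertical axis, each panel spanning an equal range) of 10 genes in control and restriction arrays (horizontal axis; sideways spread has no meaning), with group mean and SD over 3 arrays. In the upper row (Pfkm, Pfkl, Hk2, Ldhb, Gys1) every restriction array is below every control; in the lower row (Pdha1, Pdhb, Dld, Mpc1, Gbe1) restriction replicate 2 lies among the controls and both liver-rich arrays lie below.

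Lactate dehydrogenase interconverts pyruvate and lactate, and its A and B subunits are encoded by Ldha and Ldhb. Ldhb was at 7.27, 6.998 and 7.04 in restriction replicates 1, 2 and 3 and at 7.73, 7.57 and 7.64 in control replicates 1, 2 and 3. The lowest control was above the highest restriction array, and restriction replicate 2, which was not liver-rich, was the lowest of all. The log2 difference was -0.54 ± 0.10 (limma SE, n = 3 per group), 1.46-fold lower, with an adjusted p of 0.352, the smallest of the 30 genes. With the liver covariate it was -0.65 ± 0.13 (adjusted p = 0.362). Without the rows with extra digits the limma adjusted p of Ldhb was 0.812. Ldha was at 6.75, 7.01 and 6.48 against 6.90, 7.23 and 7.05, a difference of -0.31 ± 0.16. Here restriction replicate 2 was inside the control range. The difference between the 2 subunit genes was not tested.

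Because Ldhb was low in every restriction array and Ldha and Pdhb were low in the liver-rich arrays alone, the 250 bases upstream of their start sites are shown beside those of Hk2 and Gys1, which were low in all. They come from RefSeq on GRCm38.p6, 5′ to 3′ on the gene's strand, at chr6:142507958-142508207 for Ldhb (minus strand), chr7:46845554-46845803 for the first of 2 Ldha windows (plus), chr14:8172993-8173242 for Pdhb (minus), chr6:82774455-82774704 for Hk2 (minus) and chr7:45434589-45434838 for Gys1 (plus). Capitals mark ACGTG on either strand, the core shared by hypoxia response elements and the E-box CACGTG, which contains it on both strands.
Ldhb: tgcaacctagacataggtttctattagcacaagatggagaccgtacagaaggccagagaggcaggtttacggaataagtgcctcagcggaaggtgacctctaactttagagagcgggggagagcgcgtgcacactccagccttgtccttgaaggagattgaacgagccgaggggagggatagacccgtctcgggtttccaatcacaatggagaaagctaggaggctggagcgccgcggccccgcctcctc
Ldha: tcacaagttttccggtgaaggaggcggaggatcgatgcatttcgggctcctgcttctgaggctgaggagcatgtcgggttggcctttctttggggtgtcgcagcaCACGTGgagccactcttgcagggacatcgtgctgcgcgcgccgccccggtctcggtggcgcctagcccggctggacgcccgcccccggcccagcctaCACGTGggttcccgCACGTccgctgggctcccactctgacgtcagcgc
Pdhb: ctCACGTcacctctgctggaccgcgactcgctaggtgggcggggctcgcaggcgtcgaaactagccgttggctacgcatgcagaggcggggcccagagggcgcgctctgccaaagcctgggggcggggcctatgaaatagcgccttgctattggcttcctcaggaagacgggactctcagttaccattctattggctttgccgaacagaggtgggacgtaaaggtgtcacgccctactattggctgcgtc
Hk2: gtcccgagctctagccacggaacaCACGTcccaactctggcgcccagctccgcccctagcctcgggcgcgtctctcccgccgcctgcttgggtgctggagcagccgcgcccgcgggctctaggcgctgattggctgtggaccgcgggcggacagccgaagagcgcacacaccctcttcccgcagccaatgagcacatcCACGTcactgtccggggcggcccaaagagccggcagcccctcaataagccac
Gys1: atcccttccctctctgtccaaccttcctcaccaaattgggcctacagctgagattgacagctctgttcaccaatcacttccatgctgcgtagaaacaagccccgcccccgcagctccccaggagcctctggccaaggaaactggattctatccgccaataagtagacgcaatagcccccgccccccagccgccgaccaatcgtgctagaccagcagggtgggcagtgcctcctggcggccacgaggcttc
The Ldha window shown held 5 matches to ACGTG, 4 of them in 2 E-boxes, Hk2 held 2 and Pdhb 1, while the Ldhb and Gys1 windows held 0. The second Ldha window, not shown, held 0 matches to any of the 3 motifs searched here. Among the other genes low in the liver-rich arrays alone, the windows of Pdha1, Dld, Mpc1, Gbe1 and Gapdh held 0 matches to ACGTG. Those of Pgk1, Ppp1r3c and Pygl held 2, 3 and 1, and those of Pkm 0 and 1. Whether matches went with either expression pattern was not tested. Of all 32851 RefSeq windows of this length 16.6% held ACGTG and 6.02% CACGTG. Promoter windows were found for 34 of the 35 genes, 51 windows in all, of which 18 (35.3%) held ACGTG and 5 (9.80%) CACGTG. The GC box GGGCGG, searched on both strands, was in 28 (54.9%) of the 51 windows and in 32.7% of all. Matches are a description of the letters only.

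Monocarboxylate transporters move lactate and pyruvate across the cell membrane. Slc16a3, which encodes the lactate exporter MCT4, was the 1 gene of the 30 with all restriction arrays above all controls, a pattern seen in 3.53% of all genes. It was at 5.79, 5.65 and 5.70 against 5.52, 5.58 and 5.46, a difference of 0.19 ± 0.07 (limma SE, adjusted p = 0.817). These levels lay close to the array medians of 5.44 to 5.57. A probe set shared by Slc16a3 and Csnk1d went the other way, at 7.96, 7.99 and 7.83 against 8.04, 7.99 and 8.04, a difference of -0.10. Slc16a1, which encodes MCT1, overlapped between groups, at 8.98 to 9.18 against 8.76 to 9.42.

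Genes of mitochondrial pyruvate entry and oxidation were below all controls in both liver-rich arrays. Pdha1 and Pdhb encode the alpha and beta subunits of pyruvate dehydrogenase, Dlat and Dld the other catalytic subunits of the complex, and Mpc1 a subunit of the mitochondrial pyruvate carrier. Pdha1 was at 9.63, 11.02 and 9.55 in restriction replicates 1, 2 and 3 and at 11.40, 11.25 and 10.82 in the controls. Restriction replicate 2 was inside the control range, and the mean of the liver-rich arrays minus that of the controls was -1.57. The log2 difference over the 3 arrays was -1.09 ± 0.41 (limma SE, adjusted p = 0.817), and with the liver covariate -0.18 ± 0.20.

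The other subunits followed a like order. Dlat was at 7.75, 8.48 and 8.09 against 8.95, 8.69 and 8.51, so that restriction replicate 2 was just below the lowest control and the others well below. Its difference was -0.61 ± 0.21 (limma SE, adjusted p = 0.800). Dld was at 10.53, 11.43 and 10.80 against 11.72, 11.72 and 11.30, a difference of -0.66 ± 0.25 (adjusted p = 0.817 in limma). Pdhb was at 9.66, 11.13 and 10.06 against 11.40, 11.11 and 10.77, and Mpc1 at 11.75, 12.74 and 12.01 against 12.90, 13.01 and 12.58. In both, restriction replicate 2 was inside the control range. A dimmer second probe set of Mpc1 was at 6.87, 7.46 and 6.96 against 7.94, 7.87 and 7.69, lower in all 3 restriction arrays. Over these 5 genes the median difference from the control mean was -0.13 in restriction replicate 2 and -0.95 in the liver-rich arrays. Over all 9 measured pyruvate and lactate genes it was -0.10 and -0.80, beside -0.02 and -0.02 for all genes tested. These differences share the 3 control arrays.

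**Figure D3:**
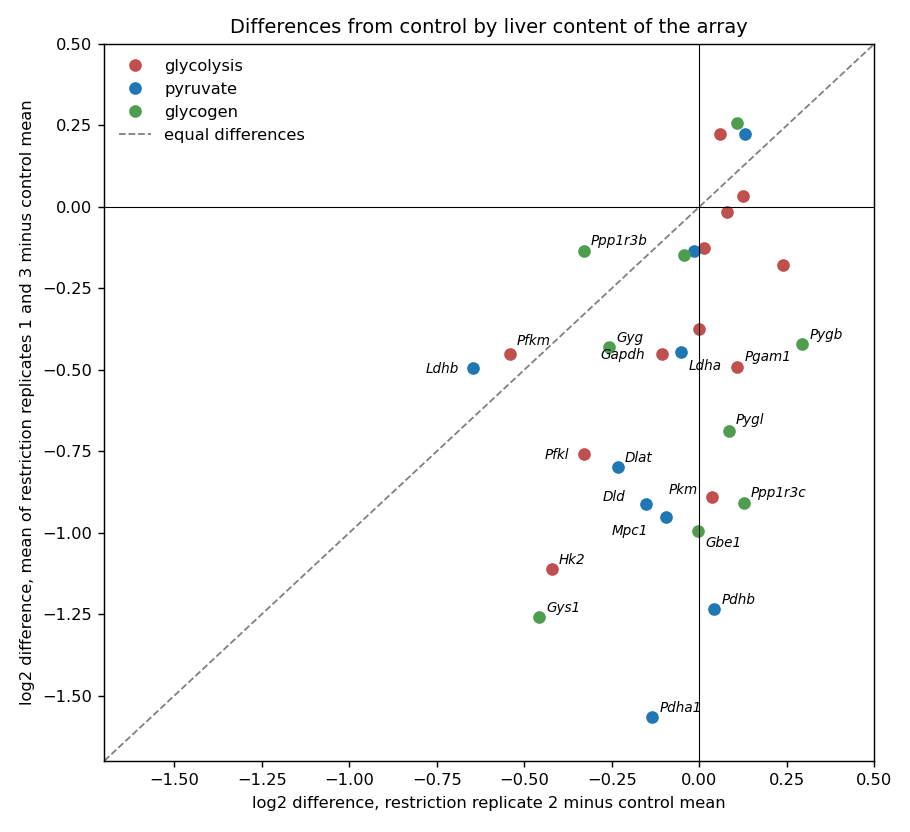
For each of the 30 genes, the log2 difference of restriction replicate 2 (horizontal axis) and of the mean of the liver-rich replicates 1 and 3 (vertical axis) from the mean of the 3 controls, which both axes share; the dashed line marks equal differences. Ldhb and Pfkm lie near the line, whereas Pdha1, Pdhb, Gbe1, Mpc1 and Ppp1r3c lie near 0 on the horizontal axis and between -1.57 and -0.91 on the vertical axis.

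Glycogen genes held both patterns. Gys1 encodes the glycogen synthase of muscle and other tissues outside liver, and it was at 7.74, 8.73 and 8.11 in restriction replicates 1, 2 and 3 and at 9.20, 9.03 and 9.32 in the controls. Every restriction array was below every control, and the liver-rich arrays were lowest. The log2 difference was -0.99 ± 0.25 (limma SE, n = 3 per group), 1.99-fold lower, with an adjusted p of 0.636. It was -0.49 ± 0.17 with the liver covariate. Gyg, glycogenin, the protein primer of glycogen, was at 8.90, 9.32 and 9.40 against 9.41, 9.58 and 9.75, separated from the controls by a narrow margin. Its difference was -0.37 ± 0.16. Gbe1, the branching enzyme, was at 8.60, 9.62 and 8.66 against 9.64, 9.86 and 9.37, with restriction replicate 2 inside the control range and a difference of -0.66 ± 0.29. Ugp2, which makes the UDP-glucose used for glycogen, went the other way, at 9.96, 9.73 and 9.80 against 9.47, 9.64 and 9.76, and overlapped the controls in restriction replicate 2.

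The other 5 of the 9 glycogen genes overlapped between groups. Pygl and Pygb, the liver and brain types of glycogen phosphorylase, differed by -0.43 ± 0.24 and -0.18 ± 0.22, and both were below all controls in the liver-rich arrays. Ppp1r3c and Ppp1r3b encode subunits that target protein phosphatase 1 to glycogen. Ppp1r3c was at 6.39 and 6.78 in the liver-rich arrays and at 7.62 in restriction replicate 2, against 7.25 to 7.64 in the controls. Ppp1r3b was at 7.86 in control replicate 1, which had the most brown adipocyte signal, and at 6.83 to 7.17 in the other 5; without control replicate 1 its log2 difference turned from -0.20 to 0.13. Phka1, a regulatory subunit of phosphorylase kinase, differed by -0.11 ± 0.11. Over all 9 measured glycogen genes the median log2 difference was -0.37, beside -0.02 for all genes tested. Of the 9, 8 (88.9%) were lower, against 56.8% of all genes. Against the control mean, the median of the 9 was -0.003 in restriction replicate 2 and -0.43 in the liver-rich arrays. Without restriction replicate 1 the median difference was -0.22.

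**Figure D4:**
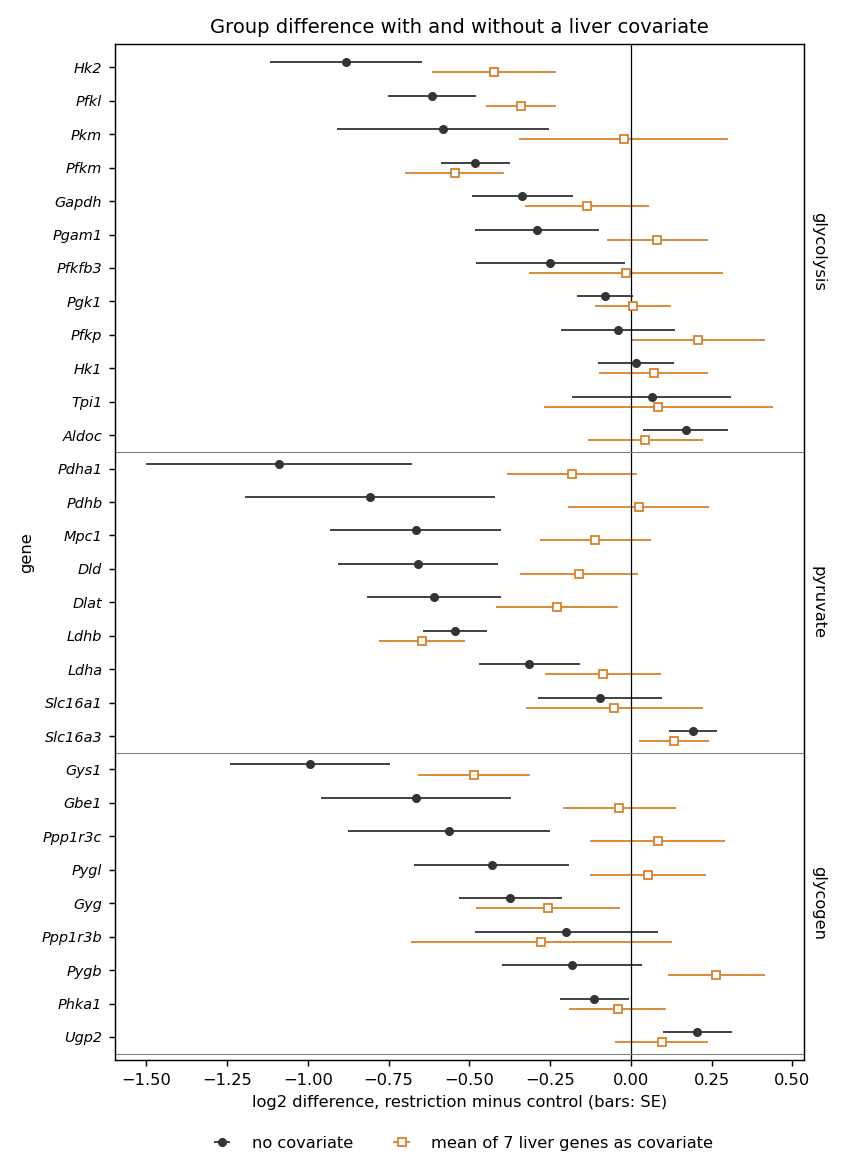
Log2 difference, restriction minus control (horizontal axis, bars are limma's SE), for each of the 30 genes (vertical axis) with and without the liver list's mean as covariate. Ldhb and Pfkm stay near -0.6 and -0.5 with the covariate, Hk2 and Gys1 move to -0.42 and -0.49, and Pdha1, Pdhb, Mpc1 and Gbe1 move to between -0.18 and 0.02.

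The covariate fit set the same contrast in numbers. With it the median log2 difference was -0.004 for glycolysis, -0.11 for pyruvate and -0.04 for glycogen genes, against -0.27, -0.61 and -0.37 without it. The 4 genes lower at an unadjusted p under 0.05 in that fit were drawn from all 3 classes, 2 of glycolysis, 1 of pyruvate and 1 of glycogen metabolism. Since the liver mean separates restriction replicates 1 and 3 from the other arrays, the group difference in this fit rests mostly on restriction replicate 2.

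The rest of the pathway was followed in a list of 60 further genes, of which 54 were measured. None passed an adjusted p of 0.05 in limma; 13 were lower and 2 higher at an unadjusted p under 0.05, so that 24.1% were lower at that p, against 3.53% of all genes. A difference below 0 was found in 34 of 54 (63.0%), against 56.8% of all genes. Against the control mean, the median of the 54 was -0.13 in restriction replicate 2 and -0.11 in the liver-rich arrays. Restriction replicate 2 lay below all controls in 24 (44.4%), against 25.9% of all genes. Both liver-rich arrays did so in 16 (29.6%), against 15.0%. In 3 of these (5.56% of the 54) restriction replicate 2 was inside the control range, against 6.34% of all genes. Without restriction replicate 2, Pdhx (lower) and Fbp1, G6pc and Pklr (higher) passed among the genes of this list named here. Of the pyruvate genes 16 of 19 were below 0, with 9 lower at an unadjusted p under 0.05, beside 8 of 17 and 2 for glycolysis and gluconeogenesis and 10 of 18 and 2 for glycogen. The shares below 0 were 84.2%, 47.1% and 55.6%, the last 2 no higher than the 56.8% of all genes; the difference between classes was not tested.

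Several of these genes regulate or complete the enzymes above. Pdk1, a kinase that switches pyruvate dehydrogenase off, was at 7.74, 7.71 and 7.56 in the restriction arrays and at 8.30, 8.22 and 7.99 in the controls, a difference of -0.50 ± 0.11 (limma SE, adjusted p = 0.546). Its 3 restriction arrays were alike and all below the controls. A second probe set of Pdk1 differed by -0.07, and with the mean of both the difference was -0.29. That second probe set was dim, at 4.455 to 4.568, below the arrays' lower quartiles of 4.75 to 4.82. Pdhx, the structural subunit that binds Dld into the complex, was at 7.001, 7.87 and 7.32 against 8.29, 8.26 and 7.95, lower in every restriction array, with the liver-rich arrays lowest. Pck2, the mitochondrial phosphoenolpyruvate carboxykinase, differed by -0.56 ± 0.15 (limma SE, adjusted p = 0.678). Phka2, the liver type regulatory subunit of phosphorylase kinase, was at 7.92, 8.32 and 8.27 against 8.91, 8.81 and 8.80, below all controls in each restriction array. Its difference was -0.67 ± 0.12 (limma SE, adjusted p = 0.349). Phkb, another subunit of that kinase, differed by -0.40 ± 0.17, and Ppp1r3d, a further glycogen-targeting phosphatase subunit, by -0.38 ± 0.10. Of the glycolysis list, Fbp2, the muscle type fructose bisphosphatase, differed by -0.37 ± 0.11, and Pfkfb4, a relative of Pfkfb3, by 0.24 ± 0.07.

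Of the liver-type genes named, Fbp1, G6pc and Pklr were high in the liver-rich arrays, whereas Pfkl, Pygl and Phka2 were below all controls there. Fbp1, the gluconeogenic fructose bisphosphatase, was at 9.81 and 9.08 in restriction replicates 1 and 3, at 4.80 in restriction replicate 2 and at 4.90, 4.97 and 5.20 in the controls. G6pc, the catalytic subunit of glucose 6-phosphatase, was at 8.70 and 7.67 in the liver-rich arrays, 5.27 in restriction replicate 2 and 5.29 to 5.63 in the controls. Pklr, pyruvate kinase of liver and red cells, was at 8.20 and 7.49, then 6.07, against 5.46 to 5.81. In restriction replicate 2 Fbp1, G6pc and Alb lay below all 3 controls, and Pklr lay above them. Gys2, the liver type glycogen synthase, and Pck1, the cytosolic carboxykinase used by both liver and fat cells, did not follow Alb. Gys2 was at 9.48, 9.17 and 8.94 in restriction replicates 1, 2 and 3 against 8.57, 9.36 and 8.55 in the controls. Pck1 was at 12.07, 12.57 and 12.38 against 12.60, 12.79 and 12.83, lower in every restriction array, with a difference of -0.40 ± 0.14 (limma SE, adjusted p = 0.814).

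**Figure D5:**
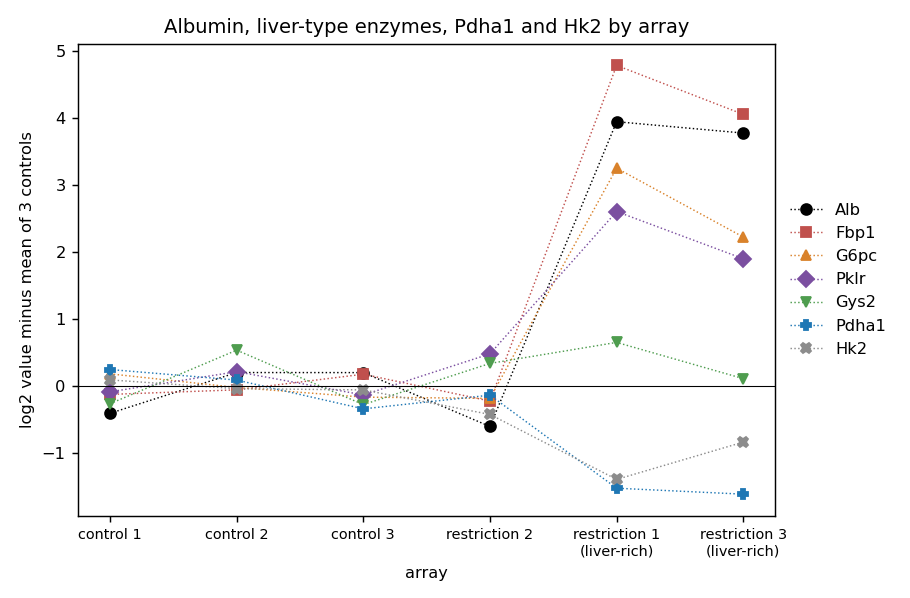
Log2 value minus the mean of the 3 controls (vertical axis) for Alb, 4 liver-type enzyme genes, Pdha1 and Hk2 in the 6 arrays (horizontal axis; dotted lines join values of 1 gene). Alb, Fbp1, G6pc and Pklr are high in the liver-rich restriction arrays, Gys2 stays within about 1 unit of 0, and Pdha1 and Hk2 are at their lowest in the liver-rich arrays.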

How the data were processed

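Adipose RNA of 6 samples was measured on 1-colour arrays, 1 per sample, per the labels. The deposited series table holds 33793 probe sets on a scale taken as log2 from its range of 3.49 to 14.86; the authors' summarisation and normalization are not stated in any label or header used here, and no further normalization was applied. No detection calls were used, so dim values have no known background. Probe sets were named through GEO's platform annotation: 23521 had 1 symbol, 1814 several and 8458 none. The probe set with the highest mean stood for each of 22180 genes. Restriction minus control was estimated per gene in R 4.3.3 by limma 3.58.1, through lmFit and then eBayes (two-sided, Benjamini-Hochberg over all genes, no filter on dim genes), and the scripts were tested on simulated data. The number of arrays limits precision. In 64 probe sets some values were not the shortest form of a single-precision number, unlike the rest of the table; these are the rows with extra digits. Replicate numbers were not taken to pair the arrays. Deviations of same-numbered arrays correlated at -0.12, -0.09 and 0.08, and those of unlike-numbered arrays at -0.223 to 0.285. With 3 arrays per group these values cannot exclude a pairing.

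The genes, lists and tests were chosen with earlier results of these data known. Values by array are given for the 4 genes of each class with the smallest unadjusted p and for others that bear on a comparison, which were chosen after their values were seen; of the 60 further pathway genes, the 3 per class with the smallest p and the liver-type isozymes Pklr, Gys2, G6pc, Fbp1 and Pck1 were named; some items are not reported here. Skeletal muscle markers averaged 5.68 to 6.19 in the restriction arrays and 5.79 to 5.91 in the controls, and macrophage markers 8.96 to 9.58 and 8.69 to 9.20. Promoter windows and probe set names are from RefSeq and GEO tables. Alternatives were other normalizations, a filter on dim genes, other variance models, array weights, mean probe sets, a replicate block, each array left out, a liver covariate, leaving out the liver-rich arrays, and leaving out the rows with extra digits.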

Additional observations from a re-analysis of the deposited data

How the results depend on the processing

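Over the 43 genes followed and 16 alternatives, 644 of 686 values kept their direction and their side of an adjusted p of 0.05 in limma. Without restriction replicate 2, 9 passed it, and 33 changed sign. Much of this was fixed in advance, as none of the 43 passed in the main fit. The replicate block, trend and robust eBayes, the dim filter and leaving out extra-digit rows cannot change a gene's difference. The 644 therefore does not measure robustness. Dim probe sets have no known background here, and 3 arrays per group limit the precision.

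The count of all genes past the adjusted p was 43; it was 0 with the replicate number as a block, 0 without rows with extra digits, 6 without the liver-rich arrays and 24 to 439 with 1 array left out. With the block, 0 of the 30 genes passed, 15 were lower and 0 higher at an unadjusted p under 0.05 (9 and 1 without it); the numbers share no known pairing. Of the 30, 0 to 5 passed with 1 array left out. The count lower at an unadjusted p under 0.05 was 14 with array weights, 4 with the liver covariate, 5 without the liver-rich arrays and 5 to 18 with 1 array left out (5 without restriction replicate 1 or control replicate 2, 18 without restriction replicate 2). The count higher, 1 gene, was 0 with median centring, the filter on dim genes, trend and robust eBayes, the liver covariate or without the liver-rich arrays, and 0 to 1 with 1 array left out. For these counts at an unadjusted p, the share of all genes was counted only in the main fit and, for lower genes, with the liver covariate. The other counts cannot be set against all genes. The medians were -0.0041 and 0.0254 for glycolysis, -0.11 and -0.0952 for pyruvate and -0.0351 and -0.0032 for glycogen with the liver covariate and without the liver-rich arrays. As alternatives added after seeing the data, the count with all restriction arrays below the controls was 6 with quantile normalization, 7 with median centring and 10 without control replicate 1, and that for the liver-rich arrays 20, 20 and 22. The shares of all genes rose too, from 6.06% to 7.08%, 9.63% and 12.1%, and from 15.0% to 16.4%, 21.7% and 22.1%.

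Signs turned, with the liver covariate and without the liver-rich arrays, for Pfkp (0.209 and 0.240), Pgk1 (0.0062 and 0.0144), Pgam1 (0.0825 and 0.109), Pdhb (0.0240 and 0.0428), Pygb (0.265 and 0.294), Pygl (0.0519 and 0.0836), Ppp1r3c (0.0835 and 0.126), Fbp1 (-0.0449 and -0.223) and G6pc (-0.0750 and -0.182), and without the liver-rich arrays alone for Pkm (0.0364) and Pfkfb3 (3.57e-05). Hk1 turned with median centring (-0.0202), Pfkp with quantile normalization (0.0062) and Tpi1 with array weights (-0.0088). With 1 array left out, signs turned in Hk1 (-0.0569 to 0.1171), Pfkp (-0.1779 to 0.1011), Tpi1 (-0.2115 to 0.2639), Slc16a1 (-0.3124 to 0.0155) and Ppp1r3b (-0.3799 to 0.1338); control replicate 1 alone decided the sign in Tpi1 and Ppp1r3b. The causes were not tested.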

Other observations

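Of the 5 genes without a single-symbol probe set, Aldoa shares a probe set with Aldoart1, a near-identical aldolase copy. It was at 6.02, 6.24 and 6.65 in restriction replicates 1, 2 and 3 and at 6.96, 6.34 and 6.38 in control replicates 1, 2 and 3, and the groups overlapped. Probe sets shared by Gapdh and the pseudogene Gm12070 differed by -0.35 to -0.27 on the log2 scale, near the -0.34 of the Gapdh probe set used. Pgm1, phosphoglucomutase, which links glucose 6-phosphate to glycogen, shares a probe set with Itgb3bp, at 8.92, 9.14 and 9.02 against 9.06, 9.36 and 9.35. Restriction replicate 2 overlapped the controls there. The probe set of Gsk3a, a kinase that inhibits glycogen synthase, is shared with 9130221H12Rik and differed by -0.01. A dimmer second probe set of Ppp1r3b differed by 0.08, where the one used differed by -0.20.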
